A study of Panonychus citri with 4 samples.

Results

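The microRNA miR-184 and its listed variants were followed through 4 small RNA libraries of the citrus red mite, Panonychus citri, a plant-feeding spider mite. Its members are all rows whose known miRNA name is miR-184, alone or followed by a letter or a hyphen suffix. They came to 11 of the 594 names listed over the 4 libraries, in 25 of 1151 rows, with 5 rows in embryos, 6 in larvae, 7 in nymphs and 7 in adults. Each library was made from the whole bodies of a single pool: over 3000 embryos, 2500 larvae, 1500 nymphs of the proto- and deutonymph stages mixed, and 1000 adults. The labels name no strain, host plant or treatment, and give no sex for the adults. With 1 library per stage and no replicates, every value compares these libraries and no test of the stages was made. In such bulk samples, fewer cells that hold a miRNA and less of it per cell cannot be told apart.

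A microRNA is cut from a hairpin precursor as a duplex of a 5p and a 3p strand, 1 of which is usually kept in an Argonaute protein while the other is lost. The kept strand finds messenger RNAs mainly through its seed, bases 2 to 8 from the 5′ end, and lowers their translation or stability. In miR-184, which is conserved from insects to mammals, the 3p strand is the one mostly kept. In Drosophila, loss of miR-184 disturbs egg production and early embryonic patterning through targets that act in germline stem cells, egg chamber axis formation and cellularization, and whether it acts so in mites is not addressed by these data.

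The listed sequences show what the name miR-184 covers in these libraries. The first group below holds rows that match the most abundant row base for base from its 5′ end and differ in where they stop, and the capitals mark bases 2 to 8. All letters are as deposited, with T for U.
miR-184: tGGACGGAgaactgataagggc
miR-184-3p: tGGACGGAgaactgataaggg
miR-184a-3p: tGGACGGAgaactgataagg
miR-184b: tGGACGGAgaactgataa
The opposite strand has other bases 2 to 8, also in capitals.
miR-184-5p: cCTTATCAtttccgctgtccaga
In the last group the capitals mark bases that differ from miR-184, aligned from base 1 at the 5′ end without gaps.
miR-184b-3p: tggacggagaactgataGggC
miR-184d-3p: tggacggagaactgataGgg
miR-184e-3p: tggacggagaaTtgataagg
miR-184f-3p: tggacggagGactgataag

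All 10 3p names shared their bases 2 to 8, so every listed length and base difference lay outside the seed. Lengths were 22 nucleotides (nt) for miR-184, 21 for miR-184-3p, 20 for miR-184a-3p, 18 for miR-184b and 23 for miR-184-5p. Without gaps, miR-184d-3p carried A18G and miR-184b-3p carried A18G and G21C, and both also matched miR-184 with 1 A left out at base 17 or 18 and no other change. These 2 names differed from each other by 1 base at the 3′ end, and miR-184j-3p, of 19 nt, was miR-184d-3p with 1 more base missing there. The name miR-184e-3p carried C12T, miR-184c-3p was the same sequence 1 base shorter, and miR-184f-3p carried A10G. None of the other 583 names shared bases 2 to 8 with any of the 11, or overlapped one without mismatch over at least 17 bases.

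The 2 strands fit each other as a duplex. In the lowest-energy duplex of miR-184 and miR-184-5p predicted with RNAduplex, 18 base pairs formed at -23.3 kcal per mol, 17 of Watson-Crick type and 1 G-U pair. Base 1 of the 3p strand paired with base 21 of the 5p strand, which left 2 unpaired bases at the 3′ end of each strand, the overhang that Dicer-type cutting leaves. Within the 3p strand only bases 8, 12, 21 and 22 were unpaired, so 6 of the 7 seed bases were paired with the 5p strand. The genomic position of the hairpin is not given in the sources used here.

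Read counts are described on 2 scales, because the listed miRNA reads are only part of each library. Listed RPM are reads per 1000000 of the reads listed under any miRNA name, which came to 248256 in embryos, 1012278 in larvae, 1258698 in nymphs and 438409 in adults. Library RPM are reads per 1000000 of the larger total behind the authors' own normalized values, between 5918115 and 5957910. The listed part of that total ran from 4.17% in the embryo to 21.2% in the nymph. All intervals are exact 95% ones after Clopper and Pearson. They hold the counting error of reads alone, with no spread between samples. PCR copies of a molecule are counted as separate reads, which the intervals do not allow for.

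Summed over its rows, miR-184 was a major miRNA in the 3 post-embryonic libraries and a lesser one in the embryo. The 11 names together had 8053 reads in embryos, 193513 in larvae, 169136 in nymphs and 40310 in adults. In listed RPM this was 32438 (interval 31745 to 33143) in embryos, 191166 (190400 to 191933) in larvae, 134374 (133778 to 134971) in nymphs and 91946 (91092 to 92805) in adults. The larva was highest and the embryo lowest, with nymph and adult in between, and no 2 of the 4 intervals overlapped. In library RPM the sums were 1352 in embryos, 32572 in larvae, 28451 in nymphs and 6811 in adults, in the same order, with larva and nymph closer together and the adult nearer to the embryo. Among families, with names pooled by their number, miR-184 ranked 7 of 140 in embryos, 2 of 145 in larvae, 2 of 165 in nymphs and 4 of 138 in adults.

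**Figure D1:**
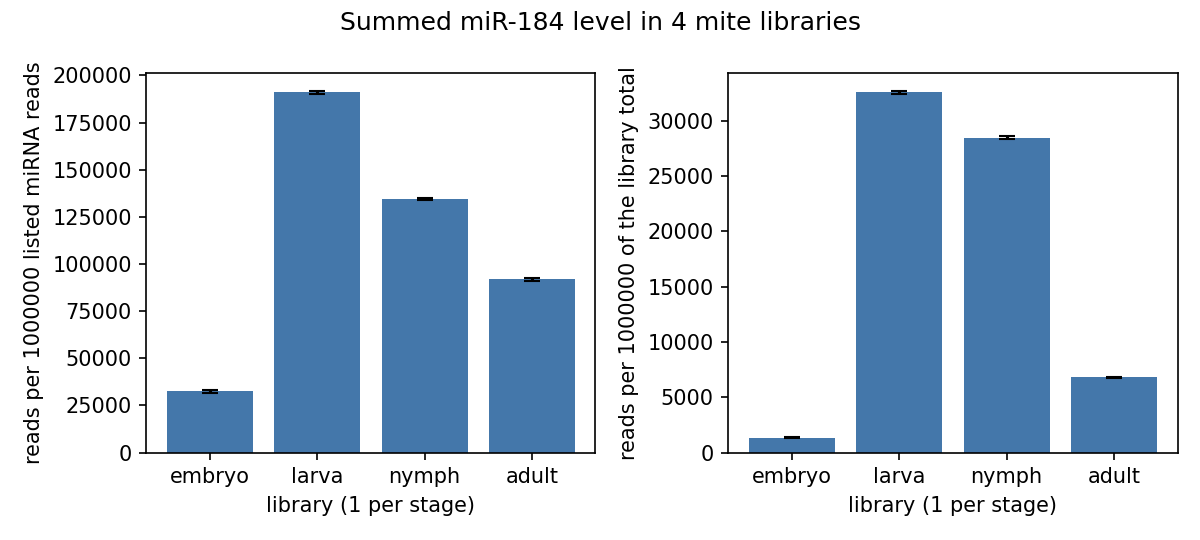
Summed miR-184 reads in the 4 libraries, per 1000000 listed miRNA reads (left) and per 1000000 of the library total (right), with 95% counting intervals as error bars. The larva bar is the highest and the embryo bar the lowest in both panels, and the adult reaches 91946 on the left but only 6811 on the right.

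From embryo to larva the summed miR-184 was 5.89-fold higher in listed RPM (5.76 to 6.03), a log2 ratio of 2.56. Here a ratio counts as higher or lower when its whole interval is past 2-fold, up or down, and the libraries compared hold at least 30 reads. By that rule this ratio was higher on all 8 settings tried, from 5.81 for the leading row alone to 24.1 (23.6 to 24.6) with the library totals. Muscle miRNA names, miR-1 and miR-133, took 19.6% of listed reads in the embryo and 50.2% in the larva. Beyond leaving miR-1 out of the totals, their part in the listed ratios was not tested. With miR-1 left out of the totals the larva over embryo ratio was 9.50 (9.29 to 9.71), and with median-of-ratios scaling over the 105 names listed in all 4 libraries it was 16.5 (16.1 to 16.9).

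After the larva the summed level was lower, by an amount that the choice of scale largely sets. The nymph over larva ratio was 0.703 (0.698 to 0.708) in listed RPM and 0.873 (0.868 to 0.879) with the library totals, and it did not pass the 2-fold rule on any of the 8 settings. The adult over nymph ratio was 0.684 (0.677 to 0.692) in listed RPM, short of the rule, but 0.449 (0.444 to 0.454) with median-of-ratios scaling and 0.239 (0.237 to 0.242) with the library totals, both lower beyond counting error. Adult over embryo, the ends of the series, gave 2.83 (2.77 to 2.90) in listed RPM and 5.04 (4.92 to 5.16) with the library totals, higher on all 8 settings. The order larva, nymph, adult, embryo therefore held on every one of the 8 settings, while the size of the steps did not. Leaving miR-184 out of the totals cannot change this order, and the choices of rows kept at least 88.5% of the family's reads in each library. Only the library totals, the totals without miR-1 and the median-of-ratios factors could readily have changed it.

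**Figure D2:**
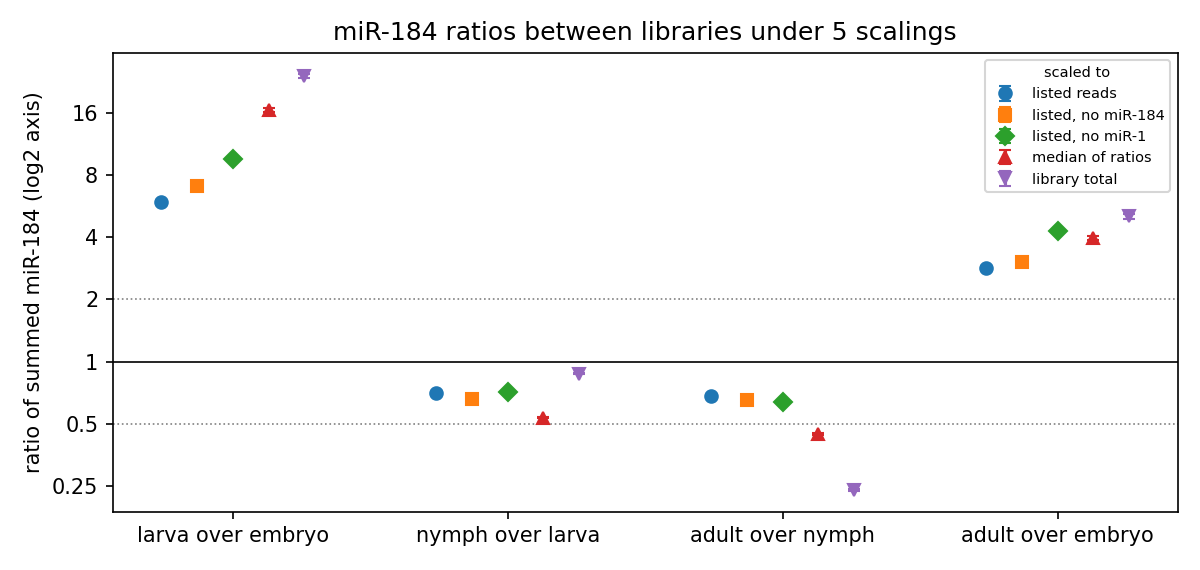
Ratios of summed miR-184 between libraries on a log2 axis, under 5 scalings, with 95% counting intervals mostly smaller than the symbols and dotted lines at 2-fold up and down. Larva over embryo spreads from 5.89 to 24.1 and stays above 2-fold, nymph over larva stays between the lines, and adult over nymph crosses the lower line for 2 of the 5 scalings.

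A ratio to another miRNA of the same library does not depend on any scaling. Per read of miR-1, the muscle miRNA that led the 3 post-embryonic libraries, there were 0.165 reads of miR-184 (0.161 to 0.169) in embryos, 0.381 (0.379 to 0.383) in larvae, 0.264 (0.263 to 0.266) in nymphs and 0.195 (0.193 to 0.197) in adults. The order of the libraries was again larva, nymph, adult, embryo. Adult and embryo lay close on this measure.

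The 22 nt row miR-184 carried most of the family in every library. It had 7402 reads in embryos, 175330 in larvae, 149724 in nymphs and 36249 in adults, or 91.9%, 90.6%, 88.5% and 89.9% of the family's reads. By name it ranked 7, 2, 3 and 4 in these libraries. Its own larva over embryo ratio was 5.81 (5.68 to 5.95), its nymph over larva ratio 0.687 (0.682 to 0.692), its adult over nymph ratio 0.695 (0.687 to 0.703) and its adult over embryo ratio 2.77 (2.70 to 2.84), all in listed RPM and all close to the family's.

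The next row, the 20 nt miR-184a-3p, changed between embryo and larva by more than the leading row did. It had 210 reads in embryos, 18056 in larvae, 19168 in nymphs and 4020 in adults, which are 846, 17837, 15228 and 9170 listed RPM. Its larva over embryo ratio was 21.1 (18.4 to 24.3) and its adult over embryo ratio 10.8 (9.43 to 12.5), both past the 2-fold rule. In listed RPM neither later step passed the rule, with nymph over larva at 0.854 (0.837 to 0.871) and adult over nymph at 0.602 (0.582 to 0.623). With the library totals adult over nymph was 0.211 (0.204 to 0.218), lower by the rule.

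This gap goes with the 21 nt row. The name miR-184-3p had 430 reads in the embryo, more than the 210 of the 20 nt form, and no row in the larva, nymph or adult library. A name without a row is not evidence that its sequence was absent, because how reads were assigned to names is not given in the sources used here. With 0 reads put in for the missing rows, the intervals of its listed ratios to the embryo ended at 0.00211 in the larva and 0.00488 in the adult, for counting error alone. Of all 594 names, 312 (52.5%) had a row in 1 library only and 105 (17.7%) in all 4, against 5 and 4 of the 11 miR-184 names.

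Shares within the exact 3p rows do not depend on the scaling either. Of these reads, the 20 nt row took 2.61% (2.27 to 2.98) in embryos, 9.33% (9.21 to 9.47) in larvae, 11.3% (11.2 to 11.5) in nymphs and 9.98% (9.69 to 10.3) in adults. The embryo was the low library here, with a larva over embryo ratio of shares of 3.58 (3.12 to 4.12). Once the 21 nt row is counted in, all forms under 22 nt took 8.004% (7.42 to 8.62) in embryos, 9.36% (9.23 to 9.49) in larvae, 11.4% (11.3 to 11.6) in nymphs and 10.04% (9.75 to 10.3) in adults, and the same ratio was 1.17 (1.08 to 1.27). The embryo thus differed from the larva mostly in whether the shorter reads were listed at 21 or at 20 nt, and less in how many were shorter. The mean length of the exact 3p reads ran from 21.8 nt in the nymph to 21.9 nt in the embryo.

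**Figure D3:**
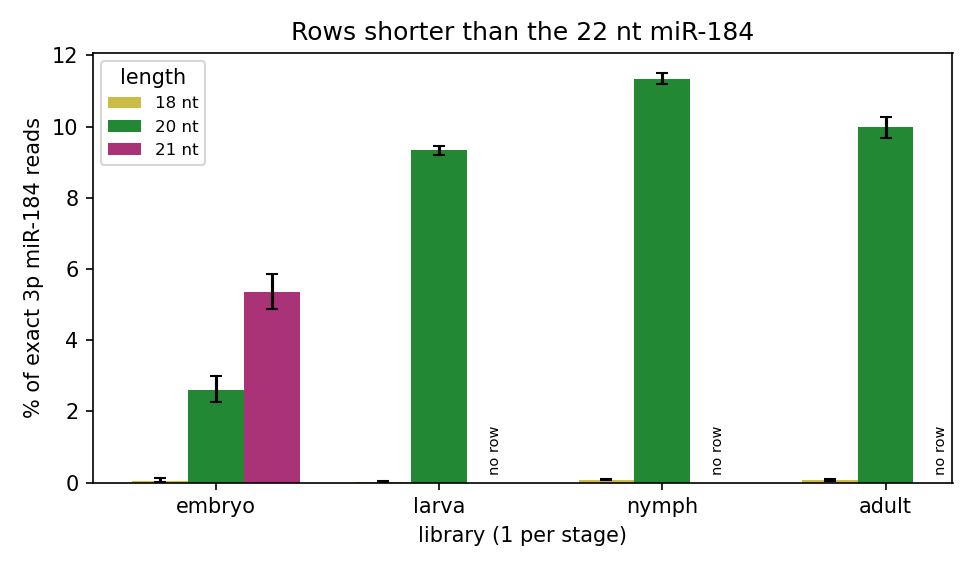
Share of exact 3p miR-184 reads listed at 18, 20 and 21 nt in each library, with 95% counting intervals as error bars, the remainder being the 22 nt row. The 21 nt bar exists in the embryo alone, at 5.34%, and the 20 nt bar stands at 2.61% there and between 9.33% and 11.3% in the other 3 libraries.

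The shortest form, the 18 nt miR-184b, was rare in every library and, in listed RPM, most frequent in the nymph. It had 4 reads in embryos, 45 in larvae, 145 in nymphs and 27 in adults, or 16.1, 44.5, 115.2 and 61.6 listed RPM. As a share of exact 3p reads it was 0.0233% (0.0170 to 0.0311) in larvae and 0.0858% (0.0724 to 0.101) in nymphs, a ratio of 3.69 (2.62 to 5.27). It took 0.0670% (0.0442 to 0.0975) in adults, which overlaps the nymph share, with an adult over nymph ratio of shares of 0.781 (0.498 to 1.18). The embryo share, 0.0497% (0.0135 to 0.127), rests on 4 reads and overlaps the others. No 19 nt row of the exact sequence was listed in any library.

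Shortened forms were not particular to miR-184. Among names with at least 1000 reads that had shorter rows of the same start beside them, its shortened share ranked 4 of 5 in embryos, 7 of 11 in larvae, 7 of 13 in nymphs and 6 of 7 in adults, counted from the highest. The medians of these names, miR-184 included, were 11.7%, 11.5%, 11.4% and 17.3%. The miR-184 share was below the median in embryos, larvae and adults, and in nymphs it was itself the median. Names without shorter rows were left out of these ranks and medians. Of the leading names, 5 of 12 in embryos, 11 of 22 in larvae, 13 of 28 in nymphs and 7 of 16 in adults had them.

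The 5p strand was listed as a single 23 nt form in every library and was rare in all. The row miR-184-5p had 7 reads in embryos, 43 in larvae, 22 in nymphs and 4 in adults, or 28.2 (11.3 to 58.1), 42.5 (30.7 to 57.2), 17.5 (10.95 to 26.5) and 9.12 (2.49 to 23.4) listed RPM. The larva was highest, as for the 3p strand, but the embryo, lowest in 3p, was not the lowest in 5p, and its interval overlapped the other 3. Larva over embryo was 1.51 (0.672 to 3.97) for the 5p strand against 5.896 (5.77 to 6.03) for the exact 3p rows. With the library totals the 5p ratio was 6.16 (2.75 to 16.2).

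Arm balance therefore leaned most strongly to 3p after the embryo. There were 1149 reads of the 3p strand per 5p read in embryos, 4499 in larvae, 7687 in nymphs and 10077 in adults (the last from only 4 5p reads). The 5p share of the family was 0.0869% (0.0350 to 0.179) in embryos, 0.0222% (0.0161 to 0.0299) in larvae, 0.0130% (0.00815 to 0.0197) in nymphs and 0.00992% (0.00270 to 0.0254) in adults. The embryo interval lay above the other 3, with a larva over embryo ratio of shares of 0.256 (0.114 to 0.674). The steps after the larva were not separated at this depth, since nymph over larva was 0.585 (0.333 to 1.0004) and adult over nymph 0.763 (0.191 to 2.25).

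The minor-arm share was also ranked among abundant families. There were 12 family numbers with at least 1000 reads in embryos, 20 in larvae, 28 in nymphs and 17 in adults. Families without a row on both arms, or with a row that could not be given an arm, were left out, 5, 10, 12 and 7. Among the rest miR-184 had the lowest minor-arm share of 7 in embryos and the lowest but 2 of 10 in larvae. It had the second lowest of 16 in nymphs and of 10 in adults. A family with no read on its minor arm would lie below miR-184, so these ranks hold only among the families kept. The medians were 0.427%, 0.130%, 0.344% and 0.0985%. Of the 7 families ranked in all 4 libraries, 4 had their highest minor-arm share in the embryo, so that by point value a high embryo share was not particular to miR-184. These were miR-184, miR-5735 (0.157% in embryos against 0.0753%, 0.0808% and 0.0978% in the later stages), miR-124 (0.241% against 0.185%, 0.0291% and 0.0763%) and miR-263 (1.46% against 0.681%, 0.548% and 0.564%). The other 3 were miR-10, from the Hox cluster, at 0.427% in embryos and 0.457% to 0.585% later, miR-993 at 6.35% and 20.5% to 23.1%, and miR-71 at 29.1% and 30.4% to 34.2%. Family numbers can pool paralogs, and some of the lowest shares rest on 1 read. The embryo shares rest on 7 minor-arm reads for miR-184, 16 for miR-5735, 8 for miR-124 and 17 for miR-263. No intervals were taken for the families other than miR-184. Whether their embryo shares lie above the later ones beyond counting error was not tested.

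Rows with a base difference made up a very small part of the 3p strand. The larva listed 28 reads of miR-184b-3p and 11 of miR-184c-3p, the nymph 48 of miR-184d-3p, 21 of miR-184e-3p and 8 of miR-184f-3p, and the adult 7 of miR-184j-3p, 2 of miR-184c-3p and 1 of miR-184f-3p. Together these were 0.0202% (0.0143 to 0.0276) of 3p reads in larvae, 0.0455% (0.0359 to 0.0569) in nymphs and 0.0248% (0.0119 to 0.0456) in adults. The nymph lay above the larva without overlap, and the adult overlapped both. The embryo listed none among 8046 3p reads. There 3 reads correspond to 0.0373%, which is no detection limit, since the lists go down to 1 read. The exact interval ends at 0.0458%, with the larva and adult values well below that end and the nymph value just below it. By this interval the lack of such rows does not set the embryo apart from the later libraries.

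Each kind of base difference was listed at a single length per library, where the exact sequence had 3 in each of these libraries. The sequence that lacks an A, or carries A18G, appeared at 21 nt in larvae, 20 nt in nymphs and 19 nt in adults, with 0.0145% (0.00962 to 0.0209), 0.0284% (0.0209 to 0.0376) and 0.0174% (0.00698 to 0.0358) of 3p reads. The C12T sequence appeared at 19 nt in the larva and adult and at 20 nt in the nymph, with 0.00569%, 0.00496% and 0.0124%. Base 12 is unpaired in the predicted duplex, while bases 10 and 18 are paired. Such rows took a median share of 0.0299% over 10 names in larvae, 0.0587% over 18 in nymphs and 0.0248% over 9 in adults. These are the names with at least 1000 reads that had such rows, miR-184 included, and names without them were left out. The miR-184 share ranked 7, 13 and 5 among them from the highest, and in adults it was itself the median. For other names these rows were any of the same family number with such a difference, so they can include paralogs. The highest shares were 12.5% for miR-92-3p in larvae and 49.1% for let-7a-5p in nymphs.

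**Figure D4:**
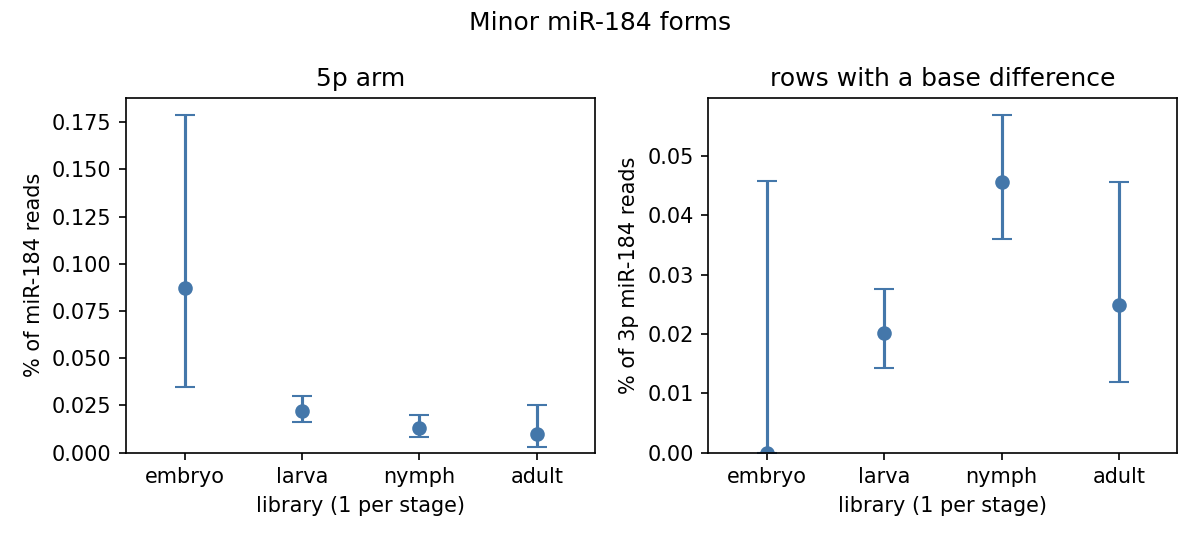
Share of the 5p strand in all miR-184 reads (left) and of rows with a base difference in 3p reads (right), in percent, by library, with 95% Clopper-Pearson intervals. The 5p share is highest in the embryo at 0.0869%, and the base-difference share is highest in the nymph at 0.0455%, with no such row in the embryo, where the interval ends at 0.0458%.

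Counted by name, the miR-184 rows must be read against how often any name differed. In listed RPM, from embryo to larva 2 of the 5 miR-184 names with at least 30 reads were higher, miR-184 and miR-184a-3p, where 28.8% of all 104 tested names were, and 1 was lower, the unlisted miR-184-3p, where 43.3% were. Nymph against larva had 1 of 5 higher, miR-184d-3p without a larva row, against 22.6% of 115 names, and 0 of 5 lower against 10.4%. Adult against nymph had 0 of 4 higher against 15.0% of 113 names and 1 of 4 lower, miR-184d-3p without an adult row, against 21.2%. Both miR-184d-3p calls, on either scale, rest on 0 reads put in for a missing row. The larva listed the same sequence 1 base longer as miR-184b-3p, at 27.7 listed RPM against 38.1 for miR-184d-3p in the nymph. The adult listed it 1 base shorter as miR-184j-3p, at 16.0. Adult against embryo had 2 of 4 higher, again miR-184 and miR-184a-3p, against 34.3% of 99 names, and 1 of 4 lower, miR-184-3p, against 17.2%. The other tested names passed in neither direction in listed RPM, and the untested ones had under 30 reads.

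With the library totals more of the miR-184 names passed, and so did more of all names in the same directions. From embryo to larva 4 of 5 were higher against 51.0% of names, with miR-184-5p at 6.16 and miR-184b at 11.3 (4.11 to 43.2) added, and 1 of 5 was lower against 12.5%. Nymph against larva had 2 of 5 higher against 29.6%, with miR-184b added at 3.22 (2.29 to 4.61), and 0 of 5 lower against 9.57%. Adult against nymph had 0 of 4 higher against 6.19% and 4 of 4 lower against 52.2%, with miR-184 at 0.243, miR-184a-3p at 0.211 and miR-184b at 0.187. Adult against embryo had 3 of 4 higher against 39.4%, with miR-184b added at 6.795 (2.37 to 26.7), and 1 of 4 lower against 15.2%. Since all are forms of a single miRNA, these counts are not independent of each other.

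In listed RPM the median ratio of the miR-184 names had the opposite sign to that of all names in each of the 4 comparisons, and with the library totals in nymph over larva alone. Over names with a row in both libraries and at least 30 reads, the median log2 ratio from embryo to larva was -0.46 for all 83 names and 2.001 for the 4 miR-184 names. From larva to nymph it was 0.42 for 93 names and -0.39 for 4, from nymph to adult 0.16 for 90 names and -0.73 for 3, and from embryo to adult -0.36 for 80 names and 1.93 for 3. The library totals shift these medians by 2.03, 0.31, -1.52 and 0.83, to 1.57 and 4.03, 0.74 and -0.07, -1.36 and -2.25, and 0.47 and 2.76. The miR-184 medians thus leave out names without a row in 1 of the libraries, such as miR-184-3p and miR-184d-3p, and names under 30 reads.

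The names whose course over the 4 libraries was nearest to that of miR-184 were miR-71a-5p, miR-5735-3p, miR-2b-3p, miR-1 and miR-1b. They were picked from the 27 other names with at least 100 reads in every library by the root mean square difference of centred log2 levels over the 4 libraries, which is the same under any scaling. The nearest, miR-71a-5p, differed by 0.27 and had 4677 listed RPM in embryos, 17687 in larvae, 13202 in nymphs and 11843 in adults. The others differed by 0.43 to 0.55, and by name each was lowest in the embryo. By name both miR-71a-5p and miR-1, at 173357, 443661, 430937 and 389276 listed RPM, had the order larva, nymph, adult, embryo. The likeness of miR-71a-5p depends on how its strand was split into names, since the embryo listed 1161 reads of it and 3756 of the 1 base longer miR-71. With overlapping rows of the same family joined, a choice made after seeing the data, that strand had 19814 listed RPM in embryos, 17694 in larvae, 13210 in nymphs and 11845 in adults. It was then highest in the embryo, and its difference from miR-184 was 1.11. Joined in the same way, miR-2b-3p differed by 0.85, miR-1 with miR-1b by 0.46 and miR-5735-3p, which had no other row, by 0.43. With only 4 libraries many names can look alike.

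**Figure D5:**
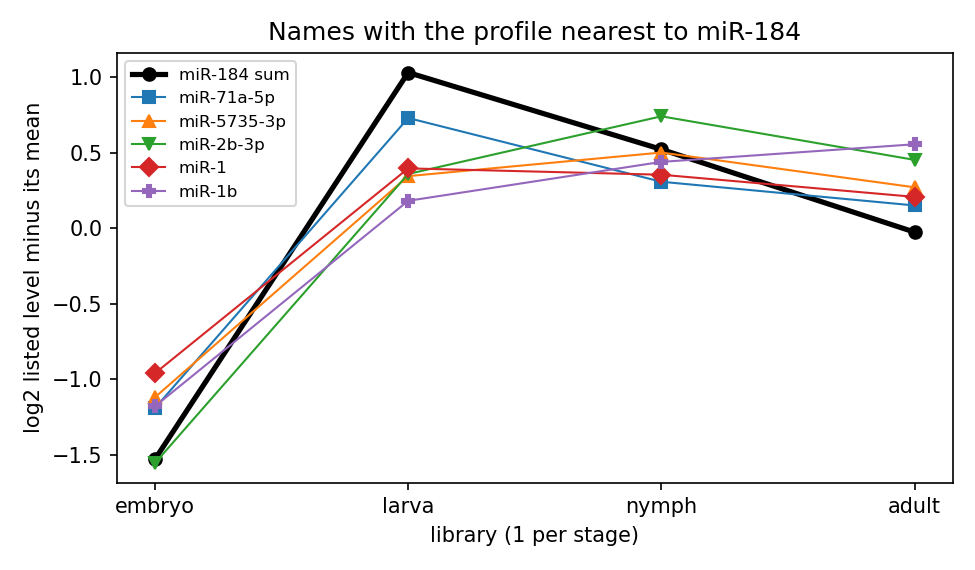
Log2 listed level minus its mean over the 4 libraries, for summed miR-184 (black) and the 5 names nearest to it. By name all 6 lines are lowest in the embryo, and miR-184, miR-71a-5p and miR-1 peak in the larva and step down to the adult, an order that miR-71a-5p loses once the rows of its strand are joined.

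Other miRNAs with roles in the germline, gonad, early embryo or growth of Drosophila were set beside miR-184. Of 12 families looked for, miR-310, miR-311, miR-312, miR-313, miR-318, miR-989, miR-309 and miR-14 had no listed name, and bantam, miR-7, miR-8 and miR-278 had 30 or more reads in every comparison. From embryo to larva 1 of the 4 was higher in listed RPM, bantam at 2.54-fold (2.14 to 3.03), 0 were lower, and the median log2 ratio was 1.09, while all 4 were higher with the library totals. Over all names, 28.8% were higher and 43.3% lower in listed RPM, and 51.0% and 12.5% with the library totals. The counts of higher and lower families were 0 and 0 for nymph over larva, 1 and 1 for adult over nymph and 3 and 0 for adult over embryo, and 1 and 0, 0 and 3, and 3 and 0 with the library totals. Of all names in nymph over larva, 22.6% were higher and 10.4% lower in listed RPM, and 29.6% and 9.57% with the library totals. In adult over nymph these shares were 15.0% and 21.2%, and 6.19% and 52.2% with the library totals. In adult over embryo they were 34.3% and 17.2%, and 39.4% and 15.2% with the library totals. These shares count names, while the list is counted by family. In adult over nymph the listed ratios were spread widely around the 0.684 of miR-184, with miR-8, a regulator of insulin signalling and growth, at 5.81 (5.51 to 6.13), bantam, which promotes growth and keeps germline stem cells, at 1.06 (0.993 to 1.13), miR-7 at 0.914 (0.823 to 1.01) and miR-278 at 0.237 (0.184 to 0.301). None of the 4 had its highest level in the larva on either scale. In listed RPM bantam and miR-8 were highest in the adult and miR-7 and miR-278 in the nymph, and in library RPM miR-8 was highest in the adult and the other 3 in the nymph.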

How the data were processed

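Small RNAs of 18 to 30 bases were cut from a 15% polyacrylamide gel, ligated, amplified and read by Solexa (Illumina) sequencing, per the labels' protocols. Each library has a list of known miRNA names with counts, sequences and normalized values, per the file headers. The read counts are whole numbers as deposited. The authors' normalized values are in RPM, reads per 1000000, and dividing the count by them gives 1 total per library. For the aligner, miRNA reference, mismatch rule and genome build, nothing is given in the sources used here. Lists go down to 1 read.

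Stages come from the labels. Counts were scaled to listed reads, and 4 pairs of libraries were compared by ratios with exact conditional binomial 95% intervals. The procedure was tested on simulated counts that held counting error alone. That does not show how it behaves with spread between samples or PCR copies. The arm was taken from the sequence, with 17 bases as the shortest overlap. The named rows are all miR-184 rows, the 5 nearest profiles and a germline list. Members and lists were chosen with earlier results of these data known. Alternatives were other totals, median-of-ratios factors, a minimum of 10 reads and the leading row alone. Tools were Python 3.11.15, scipy 1.17.1 and ViennaRNA 2.7.2.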

Additional observations from a re-analysis of the deposited data

How the results depend on the processing

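Of the 4 ratios of summed miR-184, none changed direction under the 7 alternatives. Leaving miR-184 out of the totals could not change a direction, and the choices of rows hardly could. The result therefore rests on the library totals, the totals without miR-1 and the median-of-ratios factors. With the library totals the ratios were 24.1 for larva over embryo, 0.873 for nymph over larva, 0.239 for adult over nymph and 5.04 for adult over embryo. In the same order they were 9.50, 0.713, 0.635 and 4.30 when miR-1 was left out of the totals, 16.5, 0.536, 0.449 and 3.97 with median-of-ratios factors, and 7.05, 0.657, 0.652 and 3.02 without miR-184 in the totals. The leading row alone moved nymph over larva to 0.687 and adult over nymph to 0.695. Rows with at least 10 reads, or rows without a base difference (chosen after seeing the data, as were the length shares and their alternatives), left all 4 ratios within their counting intervals. Only adult over nymph changed its side of the 2-fold rule, with median-of-ratios factors and the library totals. The cause of these shifts beyond the totals used was not tested. Arm shares were unchanged with arms taken from the name. The 5p row had its arm from its name suffix in both cases, so this was hardly a check. With at least 10 reads a row the arm shares could not be had for the embryo and adult, whose 5p rows had 7 and 4 reads. The embryo's share of shortened forms was 2.76% with the 20 and 22 nt rows alone, against 8.004% with every length. With overlapping rows joined, a choice also made after seeing the data, the likeness of miR-71a-5p moved from 0.27 to 1.11. Depth limits the rare forms most. No paired analysis was possible because each stage had 1 library.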
